A study of Caenorhabditis elegans with 8 samples.

Results

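The UDP-glucuronosyltransferase (UGT) genes of Caenorhabditis elegans were examined in RNA sequencing of whole worms. Members were all genes whose WormBase symbol is ugt followed by a number and whose FPKM (a read count scaled by gene length and by a factor for each library) was above 0 in at least 1 library. This gave 67 genes of 23134 loci above 0, and it took in all 67 such symbols of the annotation. The DL group held 4 libraries of wild-type (N2) worms exposed to cycles of 12 h light (8000 lux) and 12 h dark, and the NL group held 4 libraries of wild-type (N2) worms kept in constant dark. All worms were grown for 40 h from synchronized larvae on the bacterial strain OP50 at 20 °C and are labelled young adults. The labels name 4 batches with 1 DL and 1 NL library in each, and they give neither the number of light cycles nor whether separate cultures were used. The p-values below therefore rest on a spread between libraries that may be technical.

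UGTs are membrane enzymes of the endoplasmic reticulum that transfer a sugar from a UDP-sugar to a small lipophilic molecule. The product is more soluble and can be exported, so the family is counted among the phase II enzymes of detoxification, which act after the oxidizing cytochromes P450 of phase I. Vertebrate members mostly use UDP-glucuronate, whereas foreign compounds given to nematodes are commonly recovered as glucosides. The worm family is large, and the substrates of most members are not known.

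The libraries held 18628030 to 20394371 reads in genes, recovered from the steps between low values. In whole worms, fewer cells of a type and less RNA per cell cannot be told apart. The libraries were not alike in markers of stage: the summed level of 5 adult genes (4 vitellogenin genes and col-19) was 7.03 to 383.8 FPKM in DL and 0.0977 to 184 FPKM in NL, with the highest value of each group in DL 2 and NL 3. The summed level of the sperm markers (12 symbols at 13 loci) was 304.5 to 1303 FPKM in DL and 4.05 to 344 FPKM in NL. All 12 tested sperm genes had a log2 change above 0, with a median of 3.18, and all 12 had an unadjusted p under 0.05. The 9 oocyte and eggshell genes were also all above 0 (median log2 change 1.18, 5 at an unadjusted p under 0.05), as were the 8 germline genes (median 0.39, 2 at that p) and the 5 adult genes (median 1.04, 0 at that p). The 8 muscle genes were all below 0 (median -0.39, 1 at that p). Of the 10 neuron genes 1 was above 0 (median -0.29, 2 at that p). Of the 8 epidermis genes 5 were above 0 (median 0.17, 1 at that p), and of the 4 tested excretory and glia genes 2 were (median 0.01, 1 at that p). Limma called 0 genes of each of these lists. All 10 intestine markers reached a mean of 1 FPKM, with a summed level of 5761 to 10281 FPKM in DL and 8434 to 9447 FPKM in NL. Of these 10 genes, 2 had a log2 change above 0 (median -0.22), and limma called 0 (2 at an unadjusted p under 0.05). The part of these markers in the results below was not tested, and the main counts are also given without NL 3 and DL 2. By library, the mean log2(FPKM + 1) of the 12 tested sperm genes was 4.08, 5.82, 4.39 and 4.09 in DL 1 to DL 4. In NL 1 to NL 4 it was 1.37, 1.54, 3.99 and 0.33. Leaving out NL 3 and DL 2 therefore sets the groups further apart in sperm markers. In those counts light and sperm level cannot be told apart. Within the groups, NL 1 with NL 2 and DL 3 with DL 4 were the most alike pairs (chi-square of the reads per gene 8.06 and 23.7, against 58.6 to 116 for the other pairs).

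The question of the comparison is what a light and dark cycle does to transcript levels, with constant darkness as the control. In the UGT family, limma without a batch term called 4 genes higher in DL: ugt-26, ugt-19, ugt-29 and ugt-53. With the batch as a block only ugt-26 passed (0.174% of all genes were called). The mean levels of the 4 genes were 2.54 to 3.30 times as high in DL as in NL. None of the 54 tested members was called lower, while 27 had a negative log2 change. Of these ugt-12 narrowly missed the threshold (limma adjusted p = 0.0591). The test was limma on log2(FPKM + 1) over all 14358 genes whose mean reached 1 FPKM, with Benjamini-Hochberg adjustment and a threshold of 0.05, so the fold change of low genes is understated. Of all genes tested, 0.703% were called (0.293% higher and 0.411% lower in DL), whereas 4 of 54 UGT genes were called, or 7.41%, all of them higher. At an unadjusted limma p under 0.05 there were 9 UGT genes higher and 6 lower, against 12.4% and 8.24% of all genes.

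**Figure D1:**
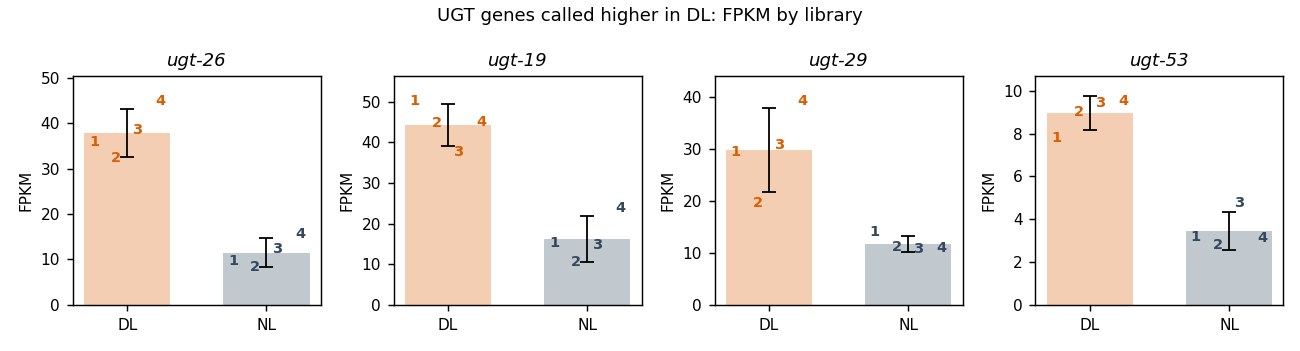
FPKM in each library for the 4 called UGT genes, DL left and NL right. Bars are means of 4 libraries with SD, and the digits are the replicate (batch) numbers. All 4 DL libraries lie above all 4 NL libraries in each gene; the genes were selected for a difference.

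The largest change was that of ugt-26, which had 35.9, 32.3, 38.5 and 44.9 FPKM in DL 1 to DL 4, against 9.74, 8.35, 12.3 and 15.5 FPKM in NL 1 to NL 4. The groups did not overlap, and in both of them replicate 4 was the highest. The mean was 37.9 ± 5.33 FPKM in DL and 11.5 ± 3.16 FPKM in NL (SD, n = 4 each). This was a log2 change of 1.66 with an SE of 0.20 (limma adjusted p = 0.0126). It was also called with the batch as a block (limma adjusted p = 0.0404; 0.00434 to 0.163 over all alternatives). In the annotation of WBcel235, ugt-26 lies on chromosome I at 4721131 to 4723982, on the plus strand, and its exons overlap no other gene.

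Expression of ugt-19 was 50.2, 44.7, 37.6 and 45.03 FPKM in DL 1 to DL 4, against 15.3, 10.55, 14.8 and 23.9 FPKM in NL 1 to NL 4. Among the NL libraries NL 4 stood highest, and it still lay below DL 3, the lowest of DL. The mean was 44.4 ± 5.19 FPKM in DL and 16.1 ± 5.62 FPKM in NL (SD, n = 4 each), and the log2 change with its SE was 1.45 ± 0.22 (limma adjusted p = 0.0322). With the batch as a block it did not pass (limma adjusted p = 0.0861; 0.00496 to 0.228 over all alternatives). The gene lies on chromosome IV at 6076686 to 6079952, on the minus strand, and its exons hold the piRNA locus 21ur-10215.

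The level of ugt-29 was 29.4, 19.7, 30.9 and 39.3 FPKM in DL 1 to DL 4, against 14.0, 11.1, 10.8 and 11.1 FPKM in NL 1 to NL 4. The NL values were close together except for NL 1, while the DL values ranged widely, with DL 2 lowest. The mean was 29.8 ± 8.04 FPKM in DL and 11.7 ± 1.51 FPKM in NL (SD, n = 4 each), and the log2 change with its SE was 1.24 ± 0.21 (limma adjusted p = 0.036). It did not pass with the block (limma adjusted p = 0.108; 0.00512 to 0.214 over all alternatives). It lies on chromosome V at 696524 to 699589, on the minus strand, with no other gene overlapping its exons.

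The lowest of the called genes was ugt-53, with 7.80, 9.0, 9.44 and 9.52 FPKM in DL 1 to DL 4, against 3.16, 2.81, 4.78 and 3.11 FPKM in NL 1 to NL 4. Its DL libraries agreed closely, and of the NL libraries NL 3 stood highest. These values rest on 88 to 298 reads per library. The mean was 8.94 ± 0.794 FPKM in DL and 3.46 ± 0.89 FPKM in NL (SD, n = 4 each), and the log2 change with its SE was 1.17 ± 0.18 (limma adjusted p = 0.0322). With the block it did not pass (limma adjusted p = 0.104; 0.00524 to 0.202 over all alternatives). It lies on chromosome V at 2849343 to 2852028, on the plus strand, with no other gene overlapping its exons.

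Within every batch the 4 called genes were higher in DL, by 0.77 (ugt-29, batch 2) to 1.98 (ugt-19, batch 2) on the log2(FPKM + 1) scale. The direction follows from groups that do not overlap, whichever libraries are paired, so it adds no further evidence. The count of called members was 1 with the batch as a block (all genes 0.174%), namely ugt-26. Leaving out NL 3 gave 8 members, against 10.9% of all genes, and leaving out DL 1 gave 1, against 0.293%. Limma called 0 members without DL 3, DL 4, NL 1 or NL 2 (14, 17, 15 and 14 at an unadjusted p under 0.05), where it called 19, 15, 9 and 9 of all genes. The share of all genes at that unadjusted p was taken only with all libraries (12.4% higher and 8.24% lower). The unadjusted counts in these fits therefore show no excess of UGT genes. The counts of called members moved with those over all genes, and the share of all genes called was highest without NL 3. Without both NL 3 and DL 2 limma called 8 members, against 10.4% of all genes (8.53% higher and 1.87% lower). They were the 4 above with ugt-44, ugt-48 and ugt-62 higher and ugt-12 lower. In that fit the groups also lay further apart in the sperm markers. Quantile normalization and centring on the median gene gave a split of 4 higher and 1 lower (ugt-12), where 216 and 150 of all genes were called, against 4 higher and 0 lower with the deposited scaling, where 101 were.

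A further 5 members lay higher in DL in every library without passing the test: ugt-31, ugt-62, ugt-48, ugt-44 and ugt-17. With the 4 called genes this made 9 of 54 members whose DL libraries all lay above the NL libraries, against 4.44% of all genes tested. In the opposite direction the groups did not overlap for 4 of 54 members, ugt-12, ugt-18, ugt-23 and ugt-33, against 4.8% of all genes.

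**Figure D2:**
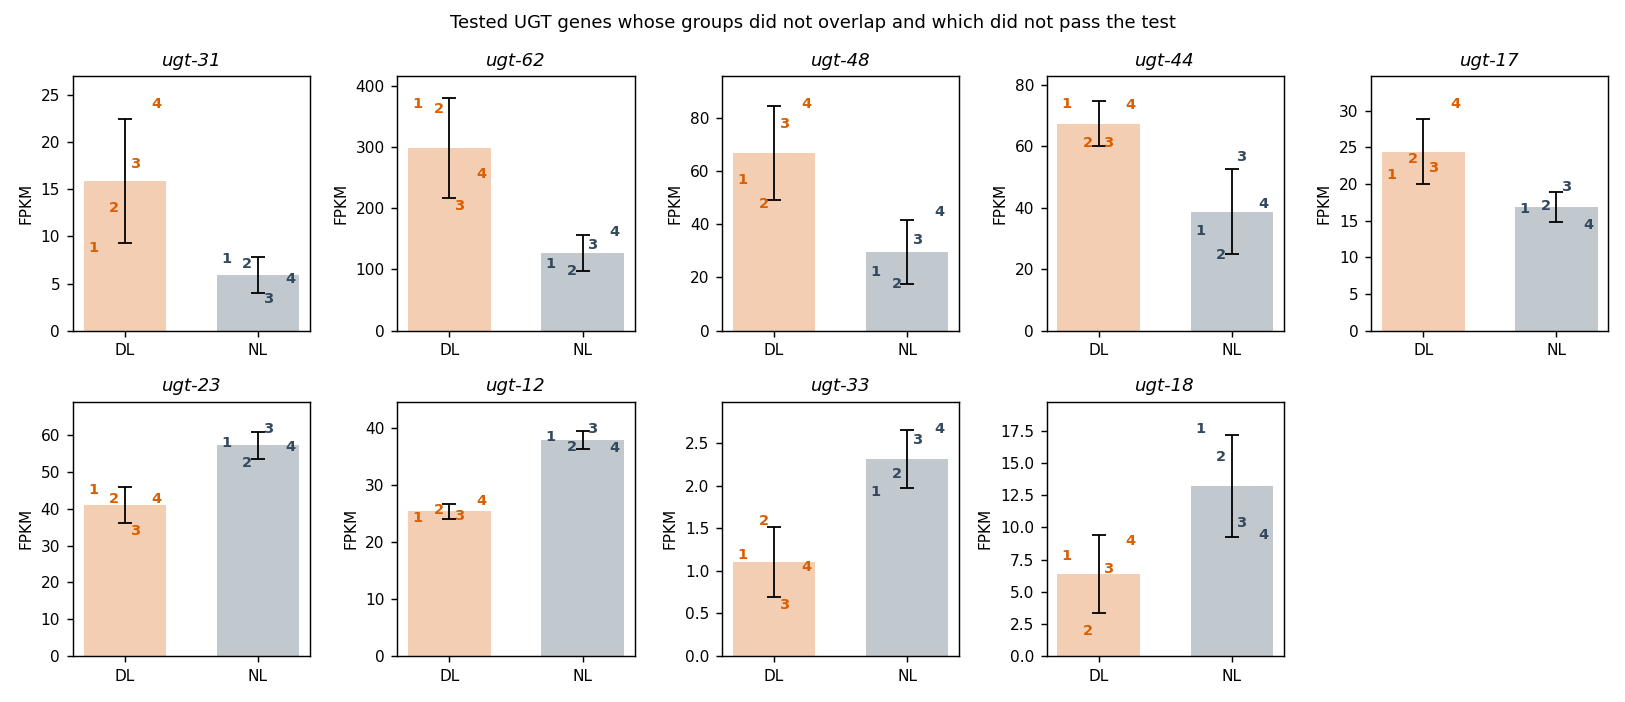
FPKM in each library for the 9 tested UGT genes whose groups did not overlap and which did not pass the test, DL left and NL right in each panel. Bars are means of 4 libraries with SD, and the digits are the replicate numbers. From ugt-31 to ugt-17 the DL libraries lie higher, and from ugt-23 to ugt-18 they lie lower.

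The most abundant UGT transcript, ugt-62, had 370.4, 362.3, 203 and 255 FPKM in DL 1 to DL 4, against 109, 97.2, 139.5 and 161 FPKM in NL 1 to NL 4. DL 1 and DL 2 stood far above the other DL libraries, so that the differences within a batch were 1.75 and 1.89 (log2) in batches 1 and 2 and 0.54 and 0.66 in batches 3 and 4. The log2 change was 1.21 ± 0.24 (limma adjusted p = 0.0605; 0.0231 to 0.317 over all alternatives).

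For ugt-48 the values were 56.4, 47.5, 77.6 and 85.2 FPKM in DL 1 to DL 4, against 22.1, 17.6, 34.1 and 44.4 FPKM in NL 1 to NL 4. Replicates 3 and 4 were the highest in both groups, and NL 4 lay just below DL 2. The log2 change was 1.20 ± 0.30 (limma adjusted p = 0.0987; 0.0406 to 0.304 over all alternatives). The exons of ugt-48 overlap cft-1 on the other strand, and the library kit does not mark strand, so reads of the shared part cannot be told apart.

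The level of ugt-31 was 8.80, 13.1, 17.7 and 24.1 FPKM in DL 1 to DL 4, against 7.63, 7.07, 3.36 and 5.52 FPKM in NL 1 to NL 4. Its within-batch differences ranged widely, at 0.18 (log2) in batch 1 and 2.10 in batch 3, and its log2 change of 1.26 ± 0.32 did not pass (limma adjusted p = 0.0991). Expression of ugt-44 was 73.9, 61.2, 61.0 and 73.4 FPKM in DL 1 to DL 4, against 32.5, 24.5, 56.6 and 41.3 FPKM in NL 1 to NL 4. Here the DL libraries were close together and NL 3 came nearest to them, and the log2 change was 0.84 ± 0.24 (limma adjusted p = 0.105; 0.014 to 0.421 over all alternatives). For ugt-17, named after its values were seen, the level was 21.2 to 30.9 FPKM in DL and 14.4 to 19.5 FPKM in NL (log2 change 0.50 ± 0.16, limma adjusted p = 0.122).

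Among the members with lower values in DL, ugt-12 showed the tightest groups. It had 24.1, 25.6, 24.6 and 27.2 FPKM in DL 1 to DL 4, against 38.4, 36.6, 39.8 and 36.5 FPKM in NL 1 to NL 4. The log2 change of -0.56 ± 0.11 narrowly missed the threshold (limma adjusted p = 0.0591; 0.0305 to 0.262 over all alternatives). This gene was chosen after its values were seen. A similar picture was given by ugt-23, at 45.1, 42.8, 33.9 and 42.7 FPKM in DL 1 to DL 4, against 58.0, 52.5, 61.7 and 56.7 FPKM in NL 1 to NL 4 (log2 change -0.47 ± 0.13, limma adjusted p = 0.105). Both lay lower in DL in 4 of 4 batches, which follows from groups that do not overlap. In all, 6 of the 54 tested members lay lower in 4 of 4 batches (10.8% of all genes), while 12 lay higher in 4 of 4 batches (13.3%).

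With all 8 libraries the most negative log2 change belonged to ugt-18, which had 7.74, 1.98, 6.75 and 8.94 FPKM in DL 1 to DL 4, against 17.7, 15.5, 10.4 and 9.44 FPKM in NL 1 to NL 4. DL 2 was the lowest library by far, and NL 4 lay close to DL 4. The log2 change was -1.05 ± 0.38 and did not pass (limma adjusted p = 0.159). Without DL 2 it was -0.66, less negative than that of ugt-33 (-0.78) or ugt-6 (-0.73) in the same fit, and over all alternatives it was -1.37 to -0.57. For ugt-33 the values were 1.18, 1.59, 0.597 and 1.04 FPKM in DL 1 to DL 4, against 1.93, 2.14, 2.53 and 2.66 FPKM in NL 1 to NL 4, from only 18 to 84 reads per library (log2 change -0.67 ± 0.22, limma adjusted p = 0.127).

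Other members with large negative changes had groups that overlapped. The gene ugt-54 had 3.65, 2.12, 2.61 and 5.24 FPKM in DL 1 to DL 4, against 9.26, 9.55, 4.50 and 3.36 FPKM in NL 1 to NL 4 (log2 change -0.75 ± 0.34, limma adjusted p = 0.26). Its NL values fell into a high pair, NL 1 and NL 2, and a pair within or next to the DL range. The same order was seen in ugt-55, at 3.48, 1.23, 1.81 and 2.38 FPKM in DL 1 to DL 4, against 5.44, 5.11, 3.40 and 2.10 FPKM in NL 1 to NL 4 (-0.62 ± 0.30, limma adjusted p = 0.287). In ugt-6 the NL libraries stood the other way round: it had 15.5, 20.3, 11.2 and 16.2 FPKM in DL 1 to DL 4, against 19.2, 18.9, 30.6 and 29.8 FPKM in NL 1 to NL 4 (log2 change -0.60 ± 0.23, limma adjusted p = 0.176). An upward member of this kind was ugt-16, with 9.62, 6.71, 9.77 and 14.7 FPKM in DL 1 to DL 4, against 2.10, 1.88, 13.5 and 8.53 FPKM in NL 1 to NL 4 (0.87 ± 0.52, limma adjusted p = 0.388). Its log2 change was 0.56 without NL 1, 0.52 without NL 2 and 1.47 without NL 3 and DL 2 together, and it passed under 0 of the 21 alternatives. In each of these 4 genes the range within NL was wider than the difference between the group means.

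**Figure D3:**
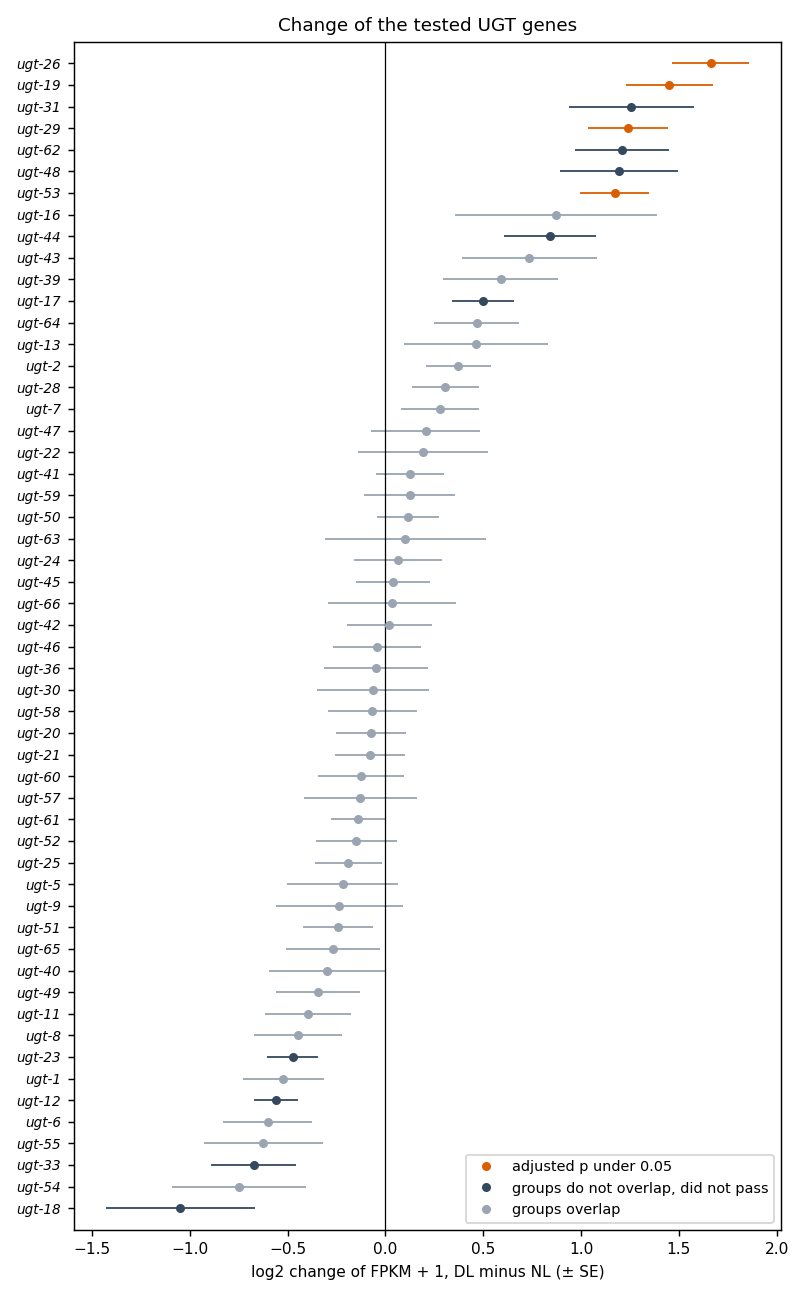
Log2 change (DL minus NL, on log2(FPKM + 1)) with its SE for the 54 tested UGT genes, in order of size. Orange points passed limma, dark points are genes whose groups did not overlap, and grey points are genes whose groups overlapped. The 4 orange points lie between 1.17 and 1.66.

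Across the family the changes were balanced in direction. Of the 54 tested members 27 had a positive and 27 a negative log2 change (21 and 33 after quantile normalization, 24 and 30 after centring on the median gene), against 53.5% positive over all genes. The median log2 change was -0.01, against 0.03 for all genes, and the median absolute change was 0.30, against 0.24. A log2 change of at least 1 was seen in 7 members (8.96% of all genes) and one of -1 or below in 1 member (2.76% of all genes). The change was under 0.5 in absolute size in 36 members. The spread within a group was close to that of other genes: the median coefficient of variation of a tested member was 23.8% in DL and 24.4% in NL, against 22.9% in DL and 24.0% in NL over all genes tested.

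**Figure D4:**
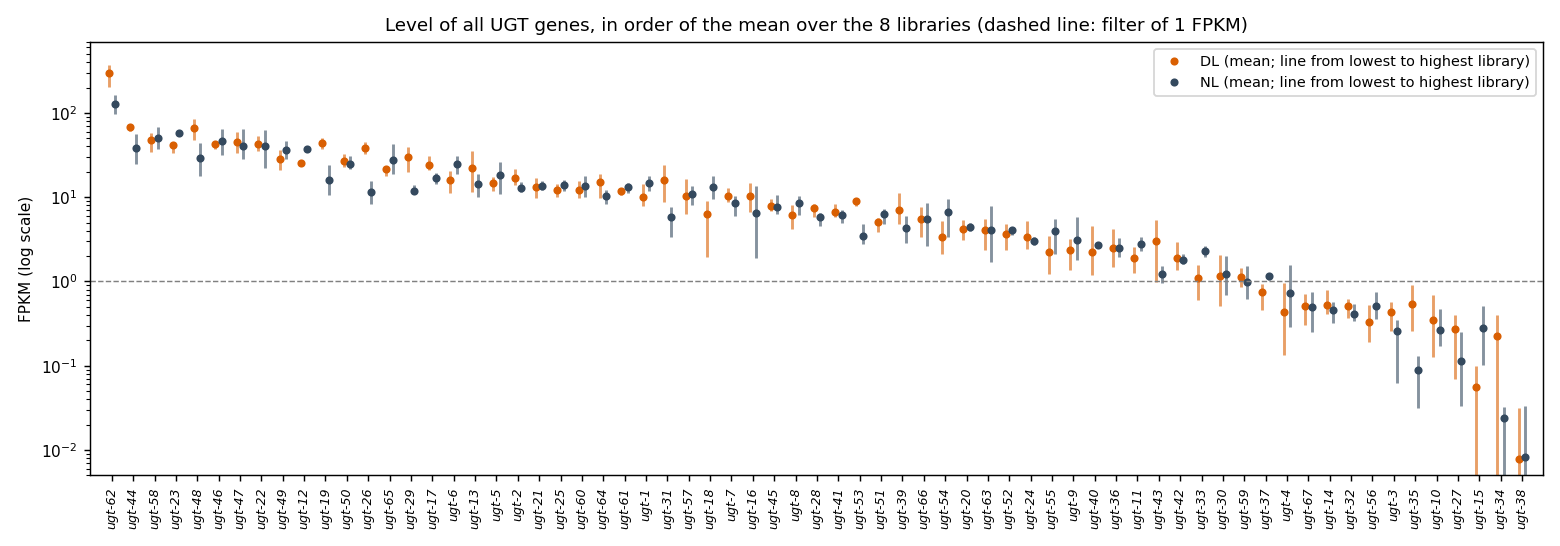
FPKM (log axis) of all 67 UGT genes in order of their mean over the 8 libraries, DL in orange and NL in dark blue. Points are group means and lines run from the lowest to the highest library, with lines that reach 0 drawn to the lower edge. The gene ugt-62 stands alone at the top, and 13 genes lie below the filter of 1 FPKM.

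The levels of the members, which FPKM makes comparable between genes of different length, spanned more than 4 orders of magnitude. The mean over the 8 libraries was 212 FPKM for ugt-62, the highest member in each library, and 0.00808 FPKM for ugt-38, which had 1 read in DL 2, 1 read in NL 4 and 0 in the other libraries. After ugt-62 came ugt-44 (53.1 FPKM), ugt-58 (49.4 FPKM), ugt-23 (49.2 FPKM) and ugt-48 (48.1 FPKM), whose means lay closer together than their libraries did. Of these ugt-58 had 49.98, 34.1, 50.04 and 57.8 FPKM in DL 1 to DL 4, against 37.4, 41.1, 57.7 and 67.2 FPKM in NL 1 to NL 4, with overlapping groups (log2 change -0.07 ± 0.23, limma adjusted p = 0.902). In all, 11 members had a mean of at least 30 FPKM, 17 a mean of 10 to 30 FPKM and 26 a mean of 1 to 10 FPKM. The median tested member had a mean of 10.7 FPKM, against 11.3 FPKM for all genes tested.

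Summed over the 67 members, the level was 1258, 1187, 1032 and 1272 FPKM in DL 1 to DL 4, against 803, 759, 994 and 1068 FPKM in NL 1 to NL 4. NL 4 lay above DL 3, so the groups overlapped. The share of ugt-62 in this sum was 29.5%, 30.5%, 19.7% and 20.1% in DL 1 to DL 4, against 13.6%, 12.8%, 14.0% and 15.1% in NL 1 to NL 4. Without ugt-62 the sum was 825 to 1017 FPKM in DL and 662 to 907 FPKM in NL, again with overlap. The sum of all loci in the table was lowest in DL 1 (661483 FPKM) and highest in DL 3 (969531 FPKM), so levels of these libraries also carry a difference in scale. As a share of that sum the members took 0.19%, 0.151%, 0.106% and 0.142% in DL 1 to DL 4, against 0.0957%, 0.0917%, 0.125% and 0.129% in NL 1 to NL 4, and there DL 3 lay below NL 3 and NL 4.

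**Figure D5:**
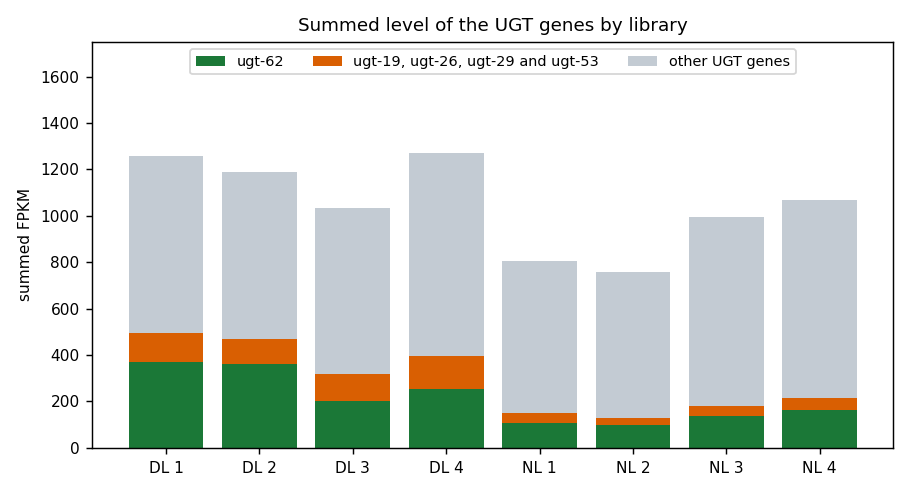
Summed FPKM of the 67 UGT genes in each library, DL left and NL right, divided into ugt-62 (green), the 4 called genes (orange) and the other members (grey). The total is 1032 to 1272 FPKM in DL and 759 to 1068 FPKM in NL, and the green part is larger in every DL library.

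Of the 67 genes 42 lie on chromosome V, 12 on IV, 5 on I, 4 on X, 3 on III and 1 on II. The called genes were on V (2 of 30 tested there), IV (1 of 12) and I (1 of 4). In 10 places 2 or more members are direct neighbours with no other protein-coding gene between them, and these runs hold 31 of the 67 genes. Of 7 runs with at least 2 tested members, 5 held both a positive and a negative log2 change. How many would do so by chance was not tested, and some of these changes were small. In the run of ugt-26, ugt-27, ugt-28 and ugt-25 on chromosome I, ugt-26 rose, while ugt-28 (log2 change 0.31) and ugt-25 (-0.19) did not pass (limma adjusted p = 0.36 and 0.585) and ugt-27 lay below the filter. Next to ugt-19 lies ugt-20, which stood at 4.24 FPKM in DL and 4.46 FPKM in NL (log2 change -0.07, limma adjusted p = 0.861). The neighbours ugt-16 and ugt-18 on chromosome V had log2 changes of 0.87 and -1.05. On chromosome IV, ugt-43 and ugt-44 shared a positive sign (0.74 and 0.84), and neither passed. The run of 7 on chromosome V, from ugt-11 to ugt-13, had 4 tested members, between -0.45 (ugt-8) and 0.46 (ugt-13), and none passed (limma adjusted p = 0.309 to 0.73). The exons of ugt-37 and its neighbour ugt-40 overlap on the same strand. UGT genes are similar in sequence, and how reads that match several genes were counted is not given in the sources used here, so levels of close relatives may share reads.

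The filter left out 13 members, ugt-3, ugt-4, ugt-10, ugt-14, ugt-15, ugt-27, ugt-32, ugt-34, ugt-35, ugt-37, ugt-38, ugt-56 and ugt-67, of which 12 lie on chromosome V and 1 (ugt-27) on I. Their means ranged up to 0.948 FPKM, and no library held more than 54 reads of any of them. The highest were ugt-37, ugt-4 and ugt-67. The level of ugt-37 was 0.801, 0.455, 0.944 and 0.785 FPKM in DL 1 to DL 4, against 1.19, 1.05, 1.13 and 1.24 FPKM in NL 1 to NL 4, so the groups did not overlap, on 16 to 41 reads. For ugt-4 the level was 0.437 ± 0.36 FPKM in DL and 0.737 ± 0.58 FPKM in NL, and for ugt-67 it was 0.51 ± 0.203 FPKM in DL and 0.492 ± 0.216 FPKM in NL (SD, n = 4 each). The gene ugt-35, chosen after its values were seen, held 9, 21, 11 and 29 reads in DL 1 to DL 4, against 2, 1, 4 and 4 reads in NL 1 to NL 4. In a fit with no filter its limma adjusted p was 0.18 (unadjusted p = 0.00604), and its exons overlap aqp-6 on the other strand. For ugt-15, likewise chosen after its values were seen, there were 3, 4, 0 and 2 reads in DL 1 to DL 4, against 15, 20, 4 and 4 reads in NL 1 to NL 4, most of them in NL 1 and NL 2 (limma adjusted p = 0.317 with no filter).

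Among genes that make or carry the sugar donor, limma called 0 of 4 (0 at an unadjusted p under 0.05), with log2 changes from -0.10 to 0.19. The gene sqv-4, which encodes the UDP-glucose dehydrogenase that makes UDP-glucuronate, had 81.8, 83.2, 66.6 and 73.2 FPKM in DL 1 to DL 4, against 48.6, 47.3, 87.7 and 95.6 FPKM in NL 1 to NL 4. Its DL values lay between the low pair NL 1 and NL 2 and the high pair NL 3 and NL 4 (log2 change 0.19 ± 0.25, limma adjusted p = 0.709). The transporter gene sqv-7, whose product carries UDP-glucuronate into the Golgi, was at 28.6 ± 5.05 FPKM in DL and 25.9 ± 6.81 FPKM in NL (SD, n = 4 each). The uridylyltransferase genes that make UDP-glucose were at 123 ± 20.3 FPKM in DL and 135 ± 37.6 FPKM in NL (rml-1) and at 13.7 ± 2.39 FPKM in DL and 13.6 ± 1.33 FPKM in NL (D1005.2).

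In the neighbouring steps of detoxification a few genes passed as well. Of 50 tested cytochrome P450 genes limma called 2 higher and 0 lower (4 higher and 12 lower at an unadjusted limma p under 0.05), with a median log2 change of -0.22. They were cyp-33C8, at 28.5 ± 3.62 FPKM in DL and 9.39 ± 2.85 FPKM in NL (log2 change 1.54 ± 0.22, limma adjusted p = 0.0234), and cyp-14A5, at 48.1 ± 11.3 FPKM in DL and 19.3 ± 3.89 FPKM in NL (1.26 ± 0.20, limma adjusted p = 0.0326). Of 40 glutathione S-transferase genes, a second phase II family, limma called 0 higher and 1 lower (9 higher and 5 lower at an unadjusted p under 0.05). The lower gene was gst-15, at 3.88 ± 0.654 FPKM in DL and 36.6 ± 21.9 FPKM in NL (limma adjusted p = 0.0322). Of 20 exporter genes of the P-glycoprotein and multidrug resistance protein families limma called 1 higher and 0 lower (6 higher and 2 lower at an unadjusted p under 0.05). This was pgp-6, with 7.85, 9.43, 8.92 and 10.96 FPKM in DL 1 to DL 4, against 3.40, 2.76, 3.14 and 3.59 FPKM in NL 1 to NL 4 (log2 change 1.28 ± 0.16, limma adjusted p = 0.0138). With the batch as a block none of these 4 passed (limma adjusted p = 0.0885, 0.0709, 0.0773 and 0.0797). The shares called were 4.0%, 2.5% and 5.0%, against 0.703% of all genes, and each rests on 1 or 2 genes. At an unadjusted limma p under 0.05, 12.4% of all genes were higher and 8.24% lower. A log2 change above 0 was seen in 18 of the 50 P450, 22 of the 40 glutathione S-transferase and 11 of the 20 exporter genes. Over all genes this share was 53.5%.

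Of 15 tested regulators of the response to foreign compounds and stress, among them skn-1, nhr-8 and ahr-1, limma called 0. At an unadjusted limma p under 0.05, 0 regulators were higher and 3 lower, against 12.4% and 8.24% of all genes. The most abundant, hif-1, the hypoxia-inducible factor, had 93.2, 87.0, 86.7 and 84.2 FPKM in DL 1 to DL 4, against 122.3, 131, 112.8 and 130.4 FPKM in NL 1 to NL 4. The groups did not overlap, and its log2 change of -0.49 ± 0.12 did not pass (limma adjusted p = 0.0893). The only sulfotransferase gene on the lists, ssu-1, lay below the filter at 0.558 ± 0.305 FPKM in DL and 0.843 ± 0.632 FPKM in NL (SD, n = 4 each).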

How the data were processed

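RNA sequencing of 8 libraries (4 DL, 4 NL) was used. The authors deposited FPKM values per gene, 1 column per library, per the file headers; HISAT2, HTSeq and the build WBcel235 are named in the submitters' processing notes, which as held here give no versions, annotation, strand setting or filters. NEBNext Ultra, the kit named in the labels' protocols, keeps no strand information. Gene IDs were matched to symbols (44113 of 47087 loci), and positions and exon lengths were read from the annotation of WBcel235 (Ensembl release 115). With these lengths 22881 of 22985 genes (99.55%), all 67 UGT genes among them, gave whole reads in all 8 libraries within 0.05 read. The reads describe depth and counting error only. At 1 read per kb the value was 0.0463 FPKM in DL 1 (18628030 reads) and 0.0546 FPKM in DL 3 (19515230 reads). The scale of a library therefore did not follow its reads in genes alone, and how it was set is not given.

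DL was compared with NL by limma 3.58.1 in R 4.3.3 on log2(FPKM + 1), with an intensity trend, for 14358 genes whose mean reached 1 FPKM, and p-values were adjusted over all of them. The fit had no batch term. In the labels, DL and NL libraries of the same number share a batch and are paired by it; their deviations from their group's mean correlated at -0.0072, -0.19, -0.32 and 0.19 for batches 1 to 4. Named members were those that passed, the 5 largest changes of each sign that did not, the 5 highest means, 3 below the filter, and ugt-26, ugt-53, ugt-19 and ugt-29 in any case. From the P450, glutathione S-transferase, exporter and regulator lists up to 2 genes that passed were named, or else the most abundant, and every gene of the sugar donor list. The members and lists were chosen with earlier results of these data known. The steps were tested on simulated data. Alternatives covered the pseudocount, filter, scaling, trend, batch block, and libraries and batches left out. Tables and figures were made with Python 3.11.15 (numpy 2.4.6, pandas 2.3.3, matplotlib 3.10.9).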

Additional observations from a re-analysis of the deposited data

Results flagged for a closer look

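Of 38 groups of 4 libraries (19 named UGT genes, 2 groups each), 1 held a library far from the others by Dixon's criterion. For ugt-29 NL 1 stood at 14.0 FPKM, with the next NL library at 11.1 FPKM, a gap that was 0.901 of the range of the group. The direction of this value is towards the DL libraries, which stood at 19.7 FPKM or more. Chance flags about 1 in 20 groups.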

How the results depend on the processing

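The 4 called UGT genes kept a positive log2 change under all 21 alternatives, at 1.53 to 1.81 for ugt-26, 1.27 to 1.65 for ugt-19, 1.07 to 1.42 for ugt-29 and 1.05 to 1.37 for ugt-53, but they passed in only 15, 11, 11 and 11 of them. In these genes all DL libraries lay above all NL libraries, so leaving libraries out could not turn the sign. The batch block, trend and filter left the log2 change as it was. Another pseudocount keeps the order of the libraries, so it could not turn the sign either. Only the scalings could have turned the sign. The count of called members, with the share of all genes called in the same fit, was 1 with the replicate block (0.174%), 1 with no filter on low values (0.143% of 23134 loci), 0 without batch 1 (0 of all genes), 0 without batch 2 (0.0905%), 2 without batch 4 (0.515%) and 8 without NL 3 and DL 2 together (10.4%), against 4 (0.703%) with all libraries. It was 0 to 8 with each library left out in turn (0.0627% to 10.9%). Limma called 0 members without batch 1 or batch 2, where 15 and 14 had an unadjusted p under 0.05. With all libraries 15 members had such a p. The share of all genes at that p was taken only there (12.4% higher and 8.24% lower). A pseudocount of 0.1 FPKM and a fit without the trend gave 4 called members each (0.599% and 0.724%), and a mean of at least 5 FPKM gave 5 (1.25%). Rescaling to the same FPKM sum gave 3 (0.508%, without ugt-19, limma adjusted p = 0.0559), and leaving out batch 3 gave 6 (7.63%). The block leaves fewer residual degrees of freedom; otherwise, apart from the fewer libraries of some fits, the cause was not tested. The log2 change of ugt-58, -0.07 with all libraries, turned positive without DL 2 (0.085), NL 3 (0.0069) or NL 4 (0.079) and without NL 3 and DL 2 together (0.16); with 1 library left out in turn it was -0.20 to 0.085, and it passed in none. The scalings moved the median of all genes by less than 0.1. The median of the tested members was -0.01 with the deposited scaling and 0.0059 at the same FPKM sum. It was -0.11 after quantile normalization and -0.07 after centring on the median gene. Depth limits the 13 members below the filter, of which no library held more than 54 reads.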
